A study of Strongylocentrotus purpuratus with 8 samples.

Results

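The 665 regions described here are windows of 500 bp of the purple sea urchin genome in which CpG methylation was at least 20 percentage points higher in embryos at 72 hours post fertilisation (hpf) than at 24 hpf. They were taken from 367598 windows that had 4 or more CpG sites, and 20 or more reads in each of 8 libraries, and they make up 0.181% of those windows. The reads of both 72 hpf libraries were pooled for the choice, and so were the reads of both 24 hpf libraries. The levels at 72 and 24 hpf and their difference are therefore a description of what was chosen, and no test of them is read. Embryos at 48 hpf and adult tube feet played no part in the choice. The chosen windows are called the gaining windows below, and the 4969 windows chosen by the mirrored rule, with 72 hpf at least 20 points lower than 24 hpf, are called the losing windows.

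The study followed DNA methylation through the development of Strongylocentrotus purpuratus by MethylC-seq, a form of whole-genome bisulfite sequencing. Its 4 groups are embryos at 24, 48 and 72 hpf and adult tube feet, the water-driven appendages with which the animal walks and feeds, with 2 biological replicates each. All were untreated, and no strain, sex or age of the adults is given in the sources used here. Both embryos and tube feet are mixtures of cell types, and the number of animals or parents behind each library is not given in the sources used here. In such bulk samples a change of methylation within cells and a change in the mix of cells cannot be told apart.

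Methylation of cytosine in CpG pairs is copied to new DNA strands by the maintenance enzyme DNMT1 and set at new positions by enzymes of the DNMT3 family, whereas TET enzymes oxidise it as a step towards its removal. In sea urchins and many other invertebrates the genome is a mosaic, with methylated stretches that lie mostly over the bodies of active genes and largely unmethylated stretches between them. A window with a level between the extremes is methylated on some DNA molecules and not on others, or at some of its CpG sites and not at others.

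The libraries held between 75377025 and 126381599 reads at CpG sites, with a median of 3 to 7 reads per listed site. Between 0.112% and 0.296% of reads on the unmethylated lambda phage spike-in were called methylated. 24 hpf replicate 2 stood apart from the rest, with a level of 42.2% over all reads, against 24.2% in 24 hpf replicate 1 and 21% to 29.8% in the 6 other libraries. Its coverage was also uneven, since 41841 of the 367598 windows had over 5 times the median coverage in that library, against 4414 to 10100 in each of the others. The mean level over these 367598 windows, each counted once, was 34.3% in 24 hpf replicate 2 and 32.1% in 24 hpf replicate 1. In the gaining windows it was 40.2% and 40.7%. The gap between the 24 hpf libraries was thus far smaller per window than over all reads. The number of gaining windows, their levels at 48 hpf and in adult tube feet and their adult calls are therefore also given with either 24 hpf library left out. Other values that rest on 24 hpf use both.

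The gaining windows had intermediate median levels at every stage. Their median level was 40.9% and 41.7% in the 24 hpf libraries, 56.4% and 57.9% in those of 48 hpf, 66% and 70.4% in those of 72 hpf, and 48.6% and 49.3% in the adult ones. With the reads of each stage pooled, the medians were 41.6%, 57.8%, 68.6% and 49.2%. The order of the embryonic stages was thus the same in both libraries of each stage, and the adult levels lay between those of 24 and 48 hpf. The spread among windows was wide, with the middle 90% of pooled levels reaching from 2.35% to 70.7% at 24 hpf, from 12% to 85.8% at 48 hpf, from 26.0% to 94.6% at 72 hpf, and in the adult from 0.327% to 88.9%. Over all 367598 windows, most of which are unmethylated, the pooled medians were 1.12%, 1.09%, 1.08% and 0.943%.

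**Figure D1:**
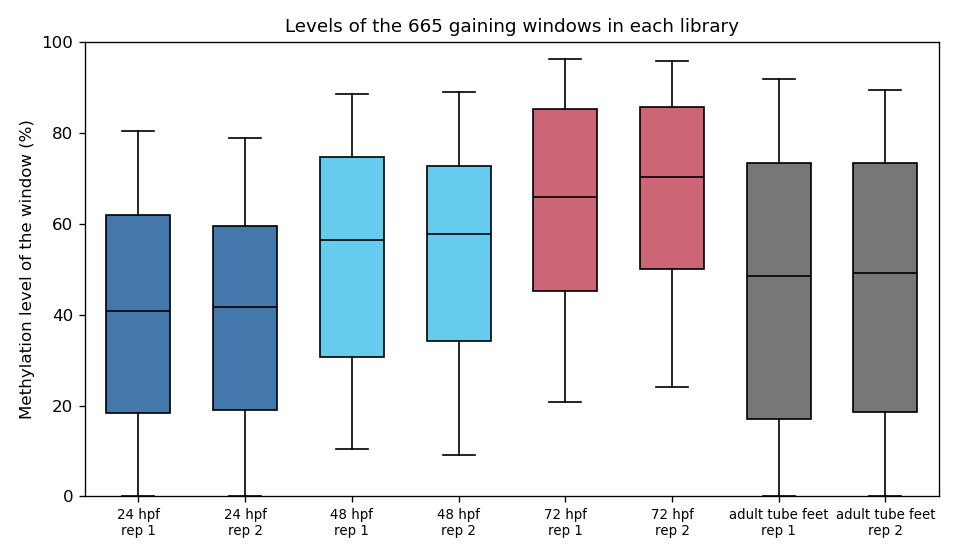
Methylation level (%, y axis) of the 665 gaining windows in each of the 8 libraries (x axis), as boxes from the lower to the upper quartile with the median as a line and whiskers at the 5th and 95th percentiles. The median lies at 40.9% and 41.7% in the 24 hpf libraries and at 66% and 70.4% in the 72 hpf libraries, a gap that the choice of windows fixed, with 48 hpf between them and adult tube feet at 48.6% and 49.3%.

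The pooled difference between 72 and 24 hpf had a median of 23.8 points and ran from 20.0 to 70.8 points. Single pairs of libraries gave a like size and much scatter. The median was 23.1 points between the libraries numbered 1, 25.9 points between those numbered 2, and 24.7 and 24.6 points in the crossed pairs. In these 4 pairs, 50, 52, 34 and 78 windows did not have the higher level at 72 hpf, and 97 windows had a difference of at least 20 points in all 4. Both 72 hpf libraries lay above both 24 hpf libraries in 504 of 665 gaining windows (75.8%), and 12.5% of all windows had this order. The choice used this contrast, so nothing is read from that share. Without 24 hpf replicate 1 the rule would choose 2017 windows, whose pooled median was 63.1% in adult tube feet and 72.8% at 48 hpf. Without 24 hpf replicate 2 it would choose 2504 windows, with medians of 46.4% in adult tube feet and 55.8% at 48 hpf. The number of windows and their levels therefore depended on which 24 hpf library was used.

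Windows just outside the threshold followed a like course at higher levels. The 99 windows with a difference of 20 to 21 points had median levels of 43.4% at 24 hpf, then 59.0% at 48 hpf and 64.0% at 72 hpf, with 51.1% in adult tube feet. The 131 windows with 19 to 20 points, which were not chosen, had 56.6%, 67.3%, 76.0% and 58.6%. Both 72 hpf libraries lay above both 24 hpf libraries in 68 of the 99 and in 89 of the 131, against 12.5% of all windows. Both sets were picked by this contrast, so nothing is read from these counts.

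A quasi-binomial model over all 8 libraries called 0 of the 367598 windows higher at 72 hpf than at 24 hpf at a Benjamini-Hochberg adjusted p below 0.05 and 20 points, so percent called was 0.0%. At an unadjusted p below 0.05 the quasi-binomial model had 3072 windows higher at 72 hpf, 476 of them by 20 points or more, and limma on log2 ratios also called 0. Without 24 hpf replicate 1 the model called 43 windows higher, 35 of which are gaining windows. It called 0 without 24 hpf replicate 2 and without each of the 6 other libraries. The gaining windows are thus defined by the size of a pooled difference and not by a test. Their choice used the same contrast, so nothing is read from how many of the called windows are gaining windows.

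Few windows chosen on a single pair of libraries reached 20 points in the other pair. Of the 3283 windows with at least 20 points between 72 and 24 hpf in the libraries numbered 1, 171 (5.21%) had at least 20 points in those numbered 2, where the median was -8.82 points. Of the 2766 windows chosen in the libraries numbered 2, 171 (6.18%) had at least 20 points in those numbered 1, where the median was 0.575 points. Over all windows, 0.752% reached 20 points between the libraries numbered 2 and 0.893% between those numbered 1. The 24 hpf libraries of the 2 pairs differed in level over all reads, with 24.2% in replicate 1 and 42.2% in replicate 2. They differed less in the mean over windows, with 32.1% and 34.3%, and replicate 2 had the more uneven coverage. The pairs are therefore not like checks of each other, and no rate of repetition is read from these shares. The labels do not say that libraries with the same number share parents or a culture.

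The gaining windows fall into 3 kinds by their levels at the ends of the interval. The 162 windows at 20% or less at 24 hpf had median levels of 8.08% at 24 hpf, then 21.3% at 48 hpf and 34.2% at 72 hpf, with 12.5% in adult tube feet. A single window of these 162 reached 80% or more at 72 hpf and is also counted among the last kind. The 298 windows between 20% and 80% at both 24 and 72 hpf had medians of 38.6%, 55.3%, 66.1% and 49.2%. The 206 windows at 80% or more at 72 hpf had medians of 63.7%, 78.0%, 89.1% and 71.8%. Windows that ended at 80% or more were thus more numerous than windows that began at 20% or less.

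Intermediate levels were common among the gaining windows also in the libraries that the choice did not use. At 48 hpf, 498 of 665 gaining windows (74.9%) lay between 20% and 80%, against 46523 of all windows (12.7%). In adult tube feet 383 gaining windows (57.6%) lay in that range, against 77144 of all windows (21%), while 176 were at 20% or less and 106 at 80% or more. All 8 libraries lay between 20% and 80% in 75 gaining windows (11.3%), against 2.72% of all windows. No methylated call in either adult library was found in 32 gaining windows (4.81%), against 24.1% of all windows. A difference of 20 points cannot arise in a window that is near 0% or near 100% at both ends, so the rule itself favours windows of intermediate level.

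The 48 hpf level mostly lay between those of the earlier and the later stage, in the gaining and in the losing windows. The pooled 48 hpf level lay between those of 24 and 72 hpf in 552 of 665 windows, at or below the lower one in 58 and at or above the higher one in 55. Among the losing windows it lay between them in 4154 of 4969, and among all windows in 108056 of 367598. In the gaining windows it lay close to the middle, with a median of 1.79 points above the midpoint, against -3.80 points in the losing windows. Both 48 hpf libraries lay above both 24 hpf libraries in 293 gaining windows (44.1%), against 9.92% of all windows. Both 72 hpf libraries lay above both 48 hpf libraries in 316 (47.5%), against 15.7% of all windows. These comparisons share libraries with the choice and are given as a description.

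In 106 gaining windows (15.9%), against 0.73% of all windows, both libraries of each embryonic stage lay above both of the stage before. These windows had median levels of 51.4% at 24 hpf, then 69.7% at 48 hpf and 78.5% at 72 hpf, with 60.3% in adult tube feet. They held a median of 12 CpG sites, against 15 over all gaining windows. The adult level of these stepwise windows was again lower than that of 72 hpf embryos, at 20% or less in 19 of them and at 80% or more in 21.

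Adult tube feet against 48 hpf embryos is the comparison in which none of the libraries was used for the choice, and it was fitted over all 367598 windows. Gaining windows were called in both directions. The adult level was higher in 39 of 665 (5.86%), against 1.17% of all windows, and lower in 128 (19.2%), against 9.47% of all windows, at an adjusted p below 0.05 and a difference of at least 20 points. The other 498 were not called. The median difference was -5.37 points over the gaining windows and -0.164 points over all windows, most of which are unmethylated. It was -1.21 points for windows chosen with at least 40 reads in every library. Both adult libraries lay above both 48 hpf libraries in 147 gaining windows (22.1%), against 12.3% of all windows, and below both in 261 (39.2%), against 29.2% of all windows.

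The gaining windows are mostly of intermediate level, so they are also set beside all windows of that range. Among all 46523 windows between 20% and 80% at 48 hpf, 4.33% were called higher and 23.8% lower in adult tube feet. Among the 498 gaining windows in that range, 29 (5.82%) were called higher and 107 (21.5%) lower. The median difference was -5.85 points in these gaining windows and -7.06 points in all windows of the range. Among windows between 20% and 80% in adult tube feet, 5.22% of the gaining windows were called higher and 12.3% lower, against 3.94% and 33.2% of all windows. How the gaining windows compare with others thus depended on the stage at which levels were matched, and the gaps were not tested. Of the losing windows, 286 (5.76%) were called higher and 1413 (28.4%) lower. With limma on log2 ratios, 22 gaining windows were called higher and 90 lower, against 0.822% and 7.74% of all windows. With a single library of 48 hpf or of adult tube feet, the quasi-binomial fit called fewer windows. The calls thus depended on having both libraries of each group. With a single adult library, the share of gaining windows called higher was close to that of all windows.

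Windows called higher and lower in adult tube feet are described apart. The calls themselves set the direction of the adult level against 48 hpf, so the adult levels of the called windows are a description. The 39 windows called higher had median levels of 28.0% at 24 hpf, then 38.3% at 48 hpf and 58.0% at 72 hpf, with 79.4% in adult tube feet. In 35 of the 39 the adult level was above that of 72 hpf, and 19 reached 80% or more. The 128 windows called lower had medians of 41.1%, 60.7%, 69.7% and 10.2%, and the adult median was thus the lowest of the 4. In 124 of the 128 the adult level was below that of 24 hpf, and in 81 it was 20% or less. The 498 windows that were not called had medians of 43.1%, 58.4%, 69.2% and 57.4%. The windows called higher held a median of 20 CpG sites and those called lower 13.

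**Figure D2:**
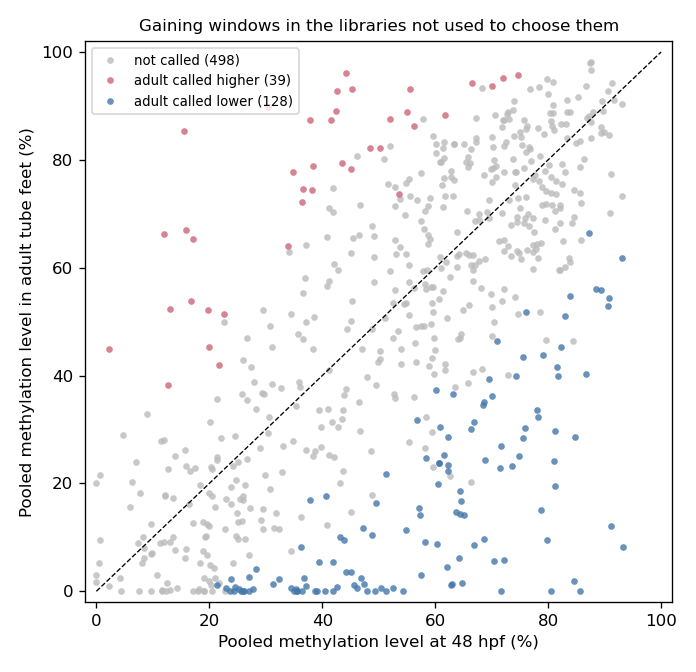
Pooled methylation level in adult tube feet (%, y axis) against that at 48 hpf (%, x axis) for each of the 665 gaining windows, with the 39 called higher in adult tube feet, the 128 called lower and the 498 not called in separate colours and the line of equal levels dashed. The call itself sets the side of the line on which a called window lies. Many of the windows called lower lie along the bottom of the plot, and 81 of the 128 have an adult level of 20% or less.

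The 2 libraries of a group differed widely in the gaining windows. The median absolute difference between the 2 libraries was 16 points for 24 hpf, 9.66 points for 48 hpf, 9.97 points for 72 hpf and 6.98 points for tube feet. In the losing windows it was 24.8, 11, 8.75 and 6.24 points. In the 498 gaining windows between 20% and 80% at 48 hpf, the 48 hpf libraries differed by a median of 10.9 points, against 7.30 points in all 46523 windows of that range. They differed by 20 points or more in 119 of the 498 (23.9%), against 11% of all such windows. In the 383 gaining windows between 20% and 80% in adult tube feet, the adult libraries differed by a median of 10.0 points, against 6.96 points, and by 20 points or more in 18.5%, against 9.24%. Depth differed too, since the shallowest of the 8 libraries had a median of 29 reads in the 498 windows and 42 in all windows of that range.

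Depth moved with the choice of the gaining windows and with the spread between libraries, and its part in them was not tested. The shallowest of the 8 libraries had a median of 28 reads in the gaining windows, 47 in all windows and 44 in the losing windows. It had fewer than 30 reads in 353 gaining windows (53.1%), against 25.3% of all windows. The median number of reads per window was lowest in 24 hpf replicate 2, at 47, and highest in 48 hpf replicate 1, at 85, against 67 and 165 in the same libraries over all windows. A read counts at each CpG site that it covers, so these numbers exceed those of separate reads. The median of the highest coverage at any single site of a gaining window was only 8 to 13 reads. The median width of the Wilson 95% interval of a window level was 17.4 to 22.2 points, an interval that covers counting error only and treats calls on the same read as independent.

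Gaining windows were a smaller share of the deeper windows. Over all windows, in the 5 classes of depth given next, the shares were 0.379%, 0.266%, 0.113%, 0.0857% and 0.0231% gaining and 1.5%, 1.42%, 1.36%, 1.25% and 1.19% losing. Among windows between 20% and 80% at 48 hpf, 1.79% were gaining windows where the shallowest library had 20 to 29 reads, 1.43% at 30 to 39, 0.769% at 40 to 59, 0.669% at 60 to 99 and 0.199% at 100 or more. In the same classes 7.50%, 8.26%, 8.36%, 8.99% and 8.83% were losing windows. Only 17 of the 8564 windows of intermediate level with at least 100 reads in every library were gaining windows. The size of the difference in the losing windows was itself unlike between libraries. Its median between 72 and 24 hpf was -15.1 points in the libraries numbered 1 and -36.2 points in those numbered 2.

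**Figure D3:**
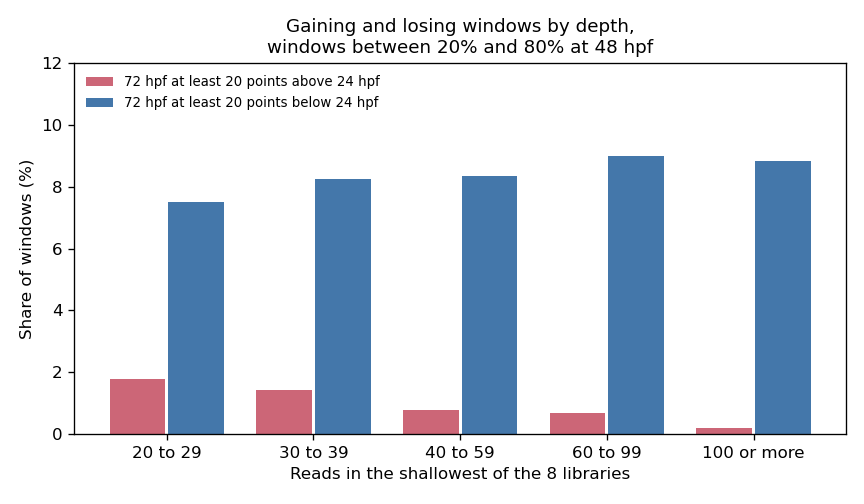
Share (%, y axis) of the windows between 20% and 80% at 48 hpf whose level was at least 20 points higher, or at least 20 points lower, at 72 hpf than at 24 hpf, by the number of reads in the shallowest of the 8 libraries (x axis). The share of gaining windows goes down from 1.79% at 20 to 29 reads to 0.199% at 100 reads or more, and the share of losing windows stays between 7.50% and 8.99%.

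The 108 gaining windows with at least 50 reads in every library had median levels of 38.2% at 24 hpf, then 49.4% at 48 hpf and 62.8% at 72 hpf, with 51.4% in adult tube feet. Both 72 hpf libraries lay above both 24 hpf libraries in 85 of them, against 12.5% of all windows at any depth. The choice used this contrast, so nothing is read from that count. Of the 108 windows, 13 were called higher in adult tube feet than at 48 hpf and 19 lower. The shares called over all windows at any depth were 1.17% and 9.47%.

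A pooled level can also differ because the stages were read at different sites of a window. The difference was therefore taken again over the sites read at both stages, as the mean of the differences at single sites weighted by their reads. Counted in this way, the median difference between 72 and 24 hpf was 20.4 points, and 342 of 665 gaining windows (51.4%) still had at least 20 points. In 503 windows (75.6%) it was at least 10 points, and 35 were not higher at 72 hpf. Chosen by this measure, 444 windows (0.121% of all) would gain methylation, and 3651 of the 4969 losing windows would remain losing windows. The 342 windows had median levels of 37.4% at 24 hpf, then 52.8% at 48 hpf and 65.6% at 72 hpf, with 41.8% in adult tube feet. Of these 342, 24 were called higher and 73 lower in tube feet than at 48 hpf, against 1.17% and 9.47% of all windows. Over the sites read in both adult tube feet and 48 hpf embryos, 33 of the 39 windows called higher and 114 of the 128 called lower still differed by at least 20 points in the same direction.

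At single CpG sites the difference was mostly in the chosen direction. These sites hold the same reads by which the windows were chosen, so the choice set that direction. The counts of sites higher at 72 than at 24 hpf, here and in the windows named below, are a description only. The gaining windows held 5370 sites with at least 5 pooled reads at both 72 and 24 hpf, of which 2653 (49.4%) were at least 20 points higher at 72 hpf and 75 (1.40%) at least 20 points lower. In 557 windows at least 4 sites could be compared in this way. Every such site was higher at 72 hpf in 179 of the 557, 50% or more of the sites were higher by 20 points in 306, and 53 windows held at least 1 site that was lower by 20 points.

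The gaining windows were scattered along the genome and seldom adjoined each other. They lay on 563 scaffolds, with a median spacing of 100000 bp between neighbours on the same scaffold, and only 1 pair was adjacent, against 295 adjacent pairs among the losing windows. Of the windows next to them, 386 met the limits on sites and reads and were not gaining windows themselves. Their median levels were 69.8% at 24 hpf, then 66.7% at 48 hpf and 67.3% at 72 hpf, with 59.4% in adult tube feet. Between 72 and 24 hpf their median difference was -0.386 points. A rise of at least 10 points was found in 26 of them (6.74%), against 1.53% of all windows. Among adjoining windows between 20% and 80% at 48 hpf, 12.1% had such a rise, against 6.60% of all windows in that range. The neighbours that could be measured were thus mostly methylated and changed little between the embryonic stages.

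**Figure D4:**
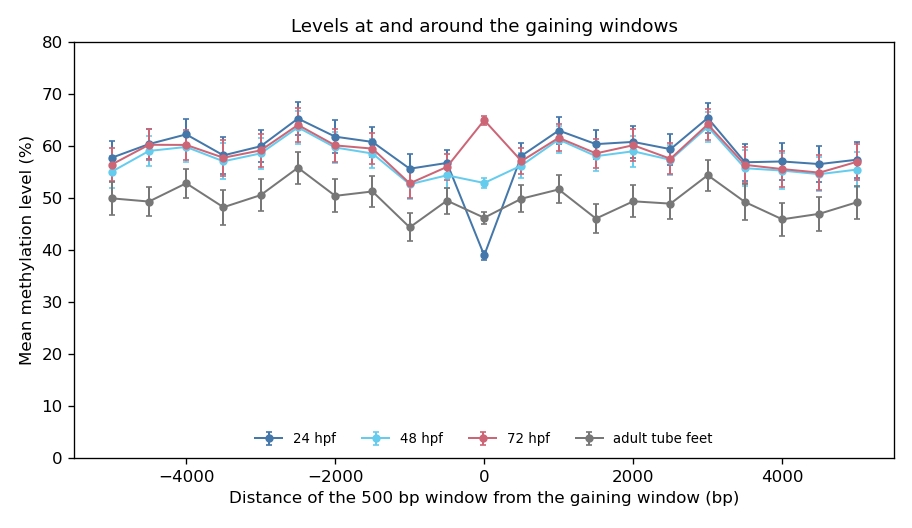
Mean methylation level (%, y axis) of the gaining windows (distance 0) and of the windows up to 5000 bp on either side (x axis, bp), for 24, 48 and 72 hpf embryos and adult tube feet, with pooled reads per stage and error bars of 1 standard error over windows. At distance 0 the means are 39.0%, 52.9%, 65.0% and 46.2%, a spread that the choice fixed for 24 and 72 hpf, while in the flanks the 3 embryonic stages lie within a few points of each other and adult tube feet lie below them.

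The mean level in the flanks was 52.7% to 65.5% in the embryos and 44.4% to 55.9% in adult tube feet, over 116 to 201 windows at each distance. At 24 hpf the gaining windows therefore lay below their surroundings, with a mean of 39.0%, whereas at 72 hpf they averaged 65.0%. The choice of windows set these means, since it picks low values at 24 hpf and high values at 72 hpf. At 48 hpf, which the choice did not use, the mean was 52.9% in the gaining windows and between 52.7% and 63.8% in the flanks. Annotation of the windows as exon, intron or other sequence was not analysed here, because no genome annotation of the build of the files was used.

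The gaining windows held a median of 15 CpG sites, as did all windows, with a range of 4 to 61 and the middle 90% between 5 and 33. Those between 20% and 80% at 48 hpf also had a median of 15 sites, against 12 in all windows of that range. Among windows between 20% and 80% at 48 hpf, 0.913% were gaining windows at 4 to 7 sites, 0.697% at 8 to 11, 0.958% at 12 to 15, 1.54% at 16 to 23 and 1.5% at 24 or more. Losing windows made up 4.82%, 4.98%, 6.63%, 10.9% and 18.6% of the same classes. Unusually high coverage, over 5 times the median window of a library, was found in 33 gaining windows (4.96%), against 13.2% of all windows, and 32 of these 33 had it in 24 hpf replicate 2. At least 75% of the 24 hpf reads came from a single library in 165 gaining windows (24.8%), against 32% of all windows.

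The windows named below were picked by a fixed order of size among the 108 with at least 50 reads in every library, apart from the adjacent pair, and their coordinates are those of the Spur3.1 assembly, counted from 1. For each, levels are given per library, then as mean ± SD of the 2 libraries of a group (n = 2), and p-values are Benjamini-Hochberg adjusted over every window of the quasi-binomial fit of adult tube feet against 48 hpf.

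The window with the largest difference between 72 and 24 hpf in that deep set lay at 19001 to 19500 of Scaffold2653 and held 26 CpG sites. Its level was 23.2% and 20.3% in 24 hpf embryos, 37.6% and 39.0% in 48 hpf embryos, 66.3% and 71.8% in 72 hpf embryos, and 79.4% and 77.9% in tube feet. In the level of the whole window the 4 groups did not overlap and each was higher than the stage before. Of the 5 sites with at least 5 pooled reads in each group, 3 had the embryonic stages in this order. At the other sites, positions 19385 and 19399, the level was 60% at 24 hpf, on 5 reads each, and 45.8% and 45% at 48 hpf. The mean was 78.7% ± 1.05 in adult tube feet and 38.3% ± 0.99 in 48 hpf embryos, a pooled difference of 40.4 points with an adjusted p of 0.000969. The pooled difference of 47.2 points between 72 and 24 hpf was 18.5 points over the sites read at both stages.

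Scaffold4448 held a gaining window at its first 500 bp, positions 1 to 500, with 31 CpG sites. Its level was 45.2% and 34.2% in 24 hpf embryos, 37.3% and 54.1% in 48 hpf embryos, 70.7% and 78.9% in 72 hpf embryos, and 0.629% and 0.725% in tube feet, where 1 methylated call was found in each library among 159 and 138 reads. The 72 hpf libraries stood above all others, 24 and 48 hpf overlapped, and adult tube feet were nearly unmethylated. Adult tube feet averaged 0.677% ± 0.0677 and 48 hpf embryos 45.7% ± 11.8, a pooled difference of -45.5 points with an adjusted p of 0.000626. Of the 12 sites with at least 5 pooled reads in each group, all 12 were higher at 72 than at 24 hpf and 10 had no methylated call in adult tube feet. The difference between 72 and 24 hpf was 35.9 points pooled and 38.7 points over the same sites.

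The window at 243001 to 243500 of Scaffold985 held 28 CpG sites and reached its later level by 48 hpf. Its level was 37.0% and 58.4% in 24 hpf embryos, 88.0% and 87.1% in 48 hpf embryos, 88.6% and 73.4% in 72 hpf embryos, and 84.8% and 82.9% in tube feet. The 24 hpf libraries lay below the 6 other libraries, and those of 72 hpf overlapped both those of 48 hpf and the adult ones. All 13 sites that could be compared were higher at 72 than at 24 hpf, and the difference was 36.5 points pooled and 35.2 points over the same sites. Means of 83.9% ± 1.34 in adult tube feet and 87.6% ± 0.621 at 48 hpf gave a pooled difference of -3.45 points, which was not called, with an adjusted p of 1.0.

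The 27 CpG sites at 674501 to 675000 of Scaffold82 gave levels of 19% and 2.35% in 24 hpf embryos, 25.5% and 26.6% in 48 hpf embryos, 65.5% and 31.2% in 72 hpf embryos, and 12.5% and 13.7% in tube feet. The 72 hpf libraries differed from each other by more than 30 points but both lay above the rest. In 24 hpf replicate 2 this window had 341 reads, against 58 in 24 hpf replicate 1. Only 2 of its sites had at least 5 pooled reads in each group, and the difference between 72 and 24 hpf was 39.6 points pooled and 14.0 points over the same sites. The mean was 13.1% ± 0.837 in adult tube feet and 26.0% ± 0.767 in 48 hpf embryos, a difference of -12.7 points that was not called, with an adjusted p of 0.124.

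Scaffold719 held the largest adult rise of the deep set, at 103501 to 104000, a window of 15 CpG sites. Its level was 4.65% and 20.0% in 24 hpf embryos, 37.4% and 24.8% in 48 hpf embryos, 53.8% and 22% in 72 hpf embryos, and 89.0% and 91.0% in tube feet. Both adult libraries stood far above all 6 embryo libraries, among which the 48 and 72 hpf libraries overlapped. Adult tube feet averaged 90.0% ± 1.44 and 48 hpf embryos 31.1% ± 8.89, a pooled difference of 59.4 points with an adjusted p of 0.000378. All 11 sites that could be compared were higher in adult tube feet than at 48 hpf.

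A further adult rise lay at 40001 to 40500 of Scaffold3242, a window of 17 CpG sites. Its level was 27.8% and 34.6% in 24 hpf embryos, 40.9% and 31.5% in 48 hpf embryos, 52.0% and 54.9% in 72 hpf embryos, and 74.7% and 74.6% in tube feet. The 72 hpf libraries lay above the overlapping 24 and 48 hpf libraries, and the adult libraries above all. Means of 74.7% ± 0.111 in adult tube feet and 36.2% ± 6.65 at 48 hpf gave a pooled difference of 38.1 points with an adjusted p of 0.00176. Of the 13 sites that could be compared, 10 were higher in adult tube feet than at 48 hpf and 3 lower. The difference between 72 and 24 hpf was 22 points pooled and 16.1 points over the same sites.

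The largest adult fall of the deep set lay at 28501 to 29000 of Scaffold1304, a window of 14 CpG sites. Its level was 53.6% and 44.3% in 24 hpf embryos, 71.6% and 69.4% in 48 hpf embryos, 67.1% and 83.9% in 72 hpf embryos, and 8.59% and 2.40% in tube feet. The adult libraries lay far below every embryo library, and the 48 and 72 hpf libraries overlapped above those of 24 hpf. The mean was 5.50% ± 4.38 in adult tube feet and 70.5% ± 1.54 in 48 hpf embryos, a pooled difference of -65.0 points with an adjusted p of 0.000254. All 10 sites that could be compared were lower in adult tube feet than at 48 hpf and higher at 72 than at 24 hpf.

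At 30001 to 30500 of Scaffold2766, with 18 CpG sites, the level was 34.1% and 72.0% in 24 hpf embryos, 66.7% and 60.3% in 48 hpf embryos, 68.4% and 64.7% in 72 hpf embryos, and 0.806% and 7.55% in tube feet. The 72 and 24 hpf libraries overlapped, since 24 hpf replicate 2 was the highest of all 8, while both adult libraries lay below every embryo library. Adult tube feet averaged 4.18% ± 4.77 and 48 hpf embryos 63.5% ± 4.51, a pooled difference of -57.5 points with an adjusted p of 0.000421.

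At 17001 to 17500 of Scaffold254, with 21 CpG sites, the level was 39.3% and 59.7% in 24 hpf embryos, 47.6% and 66.3% in 48 hpf embryos, 52.8% and 76.2% in 72 hpf embryos, and 6.63% and 11.1% in tube feet. The libraries numbered 2 were higher than those numbered 1 in every group, so the embryonic stages overlapped, and the adult libraries lay below them all. Means of 8.87% ± 3.17 in adult tube feet and 56.9% ± 13.2 at 48 hpf gave a pooled difference of -49.1 points with an adjusted p of 0.00137. The window had 67 to 332 reads per library.

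**Figure D5:**
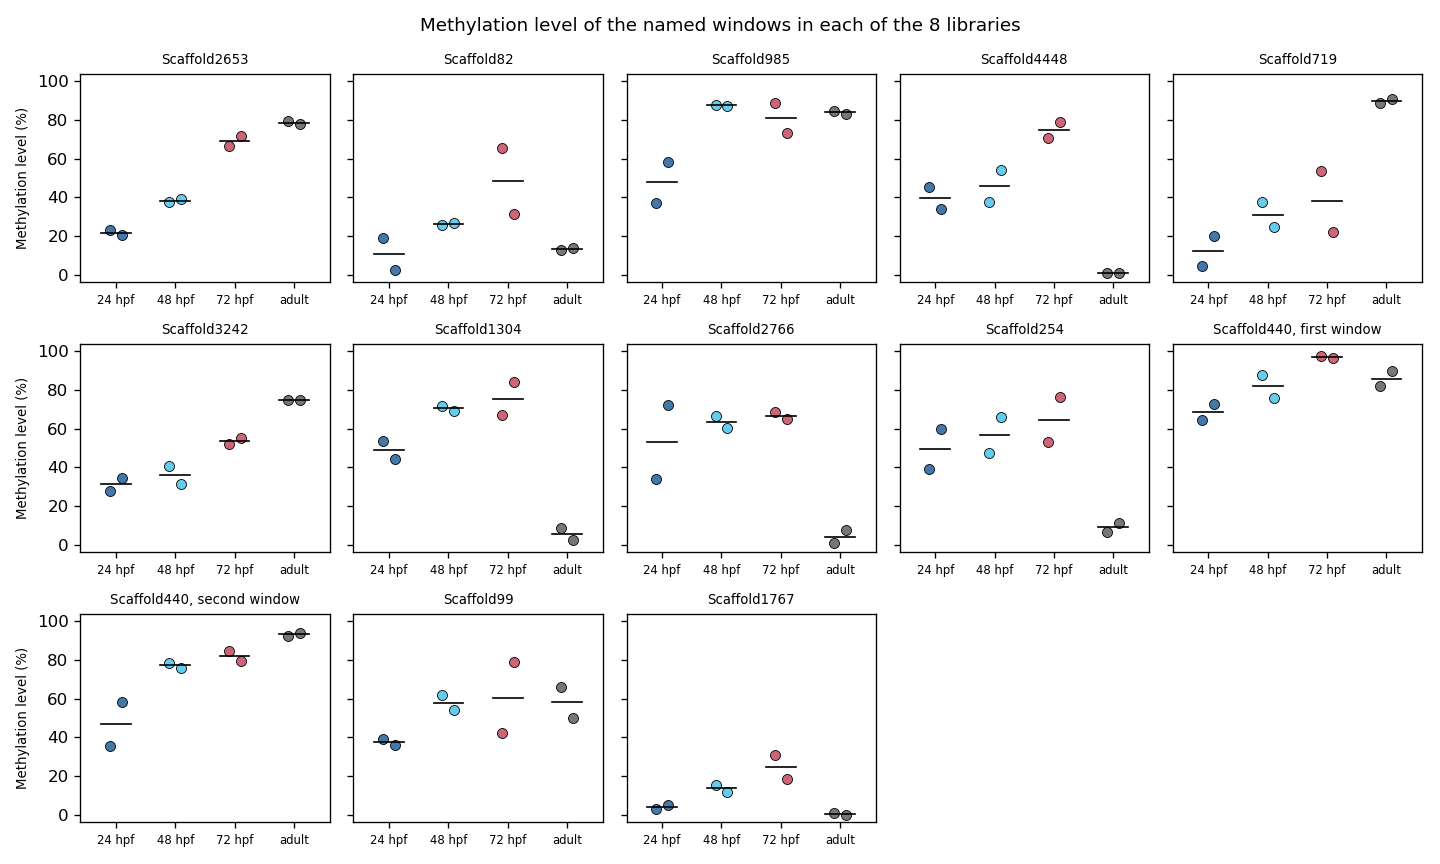
Methylation level (%, y axis) of each of the 13 windows picked by size of difference, adjacency or number of CpG sites, in embryos of 24, 48 and 72 hpf and in tube feet (x axis), with a point for each library and a line at the mean of the 2 libraries of a group. The adult libraries lie above all embryo libraries in Scaffold2653, Scaffold719, Scaffold3242 and the second window of Scaffold440, and below all of them in Scaffold4448, Scaffold1304, Scaffold2766, Scaffold254 and Scaffold1767.

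The only adjacent pair of gaining windows lay at 202001 to 202500 and 202501 to 203000 of Scaffold440, with 16 and 7 CpG sites. The first window had 64.4% and 72.5% in 24 hpf embryos, 88.0% and 75.8% in 48 hpf embryos, 97.7% and 96.6% in 72 hpf embryos, and 82.0% and 89.8% in tube feet. The second window had 35.6% and 58.3% in 24 hpf embryos, 78.6% and 75.9% in 48 hpf embryos, 84.4% and 79.4% in 72 hpf embryos, and 92.2% and 94.2% in tube feet. In both windows the 3 embryonic stages followed each other without overlap. The differences between 72 and 24 hpf were 28.3 and 31.8 points pooled, and 14.1 and 31.9 points over the same sites. In the second window adult tube feet averaged 93.2% ± 1.38 and 48 hpf embryos 77.2% ± 1.92, and the difference of 16.4 points had an adjusted p of 0.0426 but was below the 20 points that a call needs. These windows had as few as 33 and 34 reads in a library.

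The member with the most CpG sites in the deep set, 53, lay at 501501 to 502000 of Scaffold99. Its level was 39.2% and 36.1% in 24 hpf embryos, 61.7% and 54.1% in 48 hpf embryos, 42.1% and 78.9% in 72 hpf embryos, and 66.1% and 50.0% in tube feet. The 72 hpf libraries lay far apart, with replicate 1 just above the 24 hpf libraries and replicate 2 far above them. The difference was 22.1 points pooled but 8.23 points over the same sites. The 7 sites with at least 5 pooled reads in each group all lay at positions 401 to 496 of the window. Their median levels were 94.7% at 24 hpf and 100% at 72 hpf. Of the 14 sites with at least 5 pooled reads at both 24 and 72 hpf, 7 were at least 20 points higher at 72 hpf and 0 at least 20 points lower. In 24 hpf replicate 2 this window had 840 reads, against 109 to 196 in the 7 other libraries.

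The window with the next highest number of CpG sites, 42, lay at 9501 to 10000 of Scaffold1767 and was among the most deeply read. Its level was 2.92% and 5.13% in 24 hpf embryos, 15.5% and 11.8% in 48 hpf embryos, 30.8% and 18.3% in 72 hpf embryos, and 1.0% and 0% in tube feet. The 3 embryonic stages followed each other without overlap, and adult tube feet lay below all embryo libraries. In adult replicate 2 none of 179 calls, summed over the sites, was methylated, and no single site had more than 9 reads. This allows a level of up to 1.68% if calls on the same read are taken as independent, and a higher one otherwise. Of 39 sites that could be compared, 34 were higher at 72 than at 24 hpf, and their median level was 0% at 24 hpf, then 18.2% at 48 hpf and 29.6% at 72 hpf, with 0% in adult tube feet. The difference of 21.1 points between 72 and 24 hpf was 20.8 points over the same sites. The mean was 0.50% ± 0.707 in adult tube feet and 13.6% ± 2.61 in 48 hpf embryos, a difference of -13.7 points that had an adjusted p of 0.0113 and was below the 20 points that a call needs.

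The window with the largest difference of all 665, 70.8 points, was among the shallow ones and lay at 239501 to 240000 of Scaffold41. Its level was 52.0% and 11.9% at 24 hpf, 59.4% and 28.8% at 48 hpf, 81.0% and 90.9% at 72 hpf, and 0% in both adult libraries. It had 25 and 277 reads at 24 hpf, so that a single library decided the pooled level of that stage, and 21 and 22 reads at 72 hpf. None of the 23 and 36 adult calls was methylated. This allows levels of up to 13.0% and 8.33% if calls on the same read are taken as independent, and higher ones otherwise. Over the sites read at both stages the difference was 36.8 points. This window was singled out after its values had been seen.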

How the data were processed

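The authors deposited 1 table of CpG sites per library, with counts of methylated and unmethylated reads and a percent level cut down to a whole number, on build Spur3.1 with lambda phage added, per the file headers. The submitters' processing notes name Trimmomatic, Picard and MethylDackel; the file headers describe merged, sorted and deduplicated reads. No source used here names the aligner or the read filters. All values were computed from the deposited counts; the deposited percent was compared with them and not used further.

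Counts were summed in windows of 500 bp. Windows with at least 4 CpG sites listed and at least 20 reads in each of the 8 libraries were kept, which are 29.1% of those with enough sites. The level of a group is that of its pooled reads. Adult tube feet and 48 hpf were compared in a quasi-binomial logistic model per window over these 4 libraries. Its dispersion was moderated across windows with limma 3.58.1 (R 4.3.3), with a trend on coverage and a lower bound of 1. Where the mean level was below 2.5% or above 97.5%, the p-value was set to 1. P-values were adjusted over all windows. The fit was tested on simulated data. A floor of 3 reads gave the upper limit for a count of 0, with calls on the same read taken as independent.

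The windows, lists and tests were chosen with earlier results of these data known. Windows were named among those with at least 50 reads in each library, with at most 1 per scaffold in each list. The lists were the 4 largest differences between 72 and 24 hpf without overlap, the 3 largest rises and 3 largest falls called in adult tube feet, and the 2 with the most CpG sites without overlap. The longest adjacent run was named whatever its depth. A window named by several lists is described once.

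The alternatives were other read minima, weights, window positions and thresholds, a replicate block, another test, each library left out, and, added after seeing the data, the difference over the same sites and other sets of members.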

Additional observations from a re-analysis of the deposited data

How the results depend on the processing

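The number of gaining windows depended on depth and on single libraries. It was 155 at a minimum of 40 reads, 2114 at 10 reads, 128 at 30 points, 3283 with the libraries numbered 1 alone and 2766 with those numbered 2 alone, and 1184 to 2504 with a library left out. It stayed within 1.5 times 665 with equal weights, shifted windows and the same sites. The adult median, 49.2%, was 51.3% at 40 reads, 50.0% in shifted windows, 48.5% as the mean of replicate levels, 41.9% over the same sites, and 48.6% to 49.3% without an adult library. For members chosen without 24 hpf replicate 1, 24 hpf replicate 2, 72 hpf replicate 1 and 72 hpf replicate 2 it was 63.1%, 46.4%, 35.7% and 48.2%. The median at 48 hpf, 57.8%, was 52.0% at 40 reads, 56.2% in shifted windows, 52.5% over the same sites and 56.4% to 57.9% without a 48 hpf library, and 72.8%, 55.8%, 45.7% and 56.8% for members chosen without those same 4 libraries. The median of adult tube feet minus 48 hpf, -5.37 points, was -1.21 at 40 reads, -6.56 over the same sites, -6.14 to -4.37 with a library left out, and -5.17, -7.36, -5.38 and -4.44 for members chosen without those same libraries. Calls of gaining windows higher and lower in adult tube feet, 39 and 128, were 16 and 25 at 40 reads, 88 and 352 at 10 reads, 22 higher with limma, 0 to 3 and 0 to 32 with a library left out, and 65 to 128 and 346 to 542 for members chosen without a 24 hpf library. Over all windows, 4294 and 34799 calls became 2608 and 20039 at 40 reads, and 0 to 1327 and 0 to 11638 with a library left out. The counts of called gaining windows rest on unequal numbers of such windows. The shares called higher and lower were 5.86% and 19.2% of 665. At 40 reads they were 10.3% and 16.1% of 155, against 1.21% and 9.30% of all windows. At 10 reads they were 4.16% and 16.7% of 2114, against 1.16% and 9.12%. Members chosen without 24 hpf replicate 1 gave 3.22% and 17.2% of 2017, and those without replicate 2 gave 5.11% and 21.6% of 2504. With a single library in a group, that library is assumed to vary like the other group. With the replicate block, which leaves 1 residual degree of freedom, 0 gaining windows and 0 of all windows were called in either direction, and all 7 named windows that had a call lost it; at an unadjusted p below 0.05 this fit had 9362 windows higher and 50540 lower. Libraries with the same number deviated together with correlations of 0.234 between 48 and 24 hpf and 0.00414 to 0.0843 in the other pairs of groups, so the numbers were not taken to pair the samples. Calls of windows higher at 72 than at 24 hpf numbered 0 to 43 with a library left out. Fewer windows and fewer libraries enter several of these settings; otherwise the cause was not tested. All 13 named windows kept their side of the threshold with limma and with a fit over all 8 libraries.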
